A study of Mus musculus with 16 samples.

Results

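The miR-130 and miR-301 family, 1 family by its shared seed, was examined in small RNA libraries from plasma extracellular vesicles (pEVs) of PS19 and wild-type (WT) mice. The members are the mature 3p arms mmu-miR-130a-3p, mmu-miR-130b-3p, mmu-miR-301a-3p and mmu-miR-301b-3p, fixed by name. Of these 4 members, the 2 matched by name to a row of the expression table used were analysed, mmu-miR-130a-3p and mmu-miR-130b-3p, among 1247 miRNA entries and 15159 ncRNAs with a read. mmu-miR-301a-3p and mmu-miR-301b-3p were not analysed here. The family was selected on measured values of these same libraries, namely the PS19 and WT levels of miR-130b-3p. Its PS19 and WT values are therefore given as a description, with no test.

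PS19 mice (PS19+/-, 8 mice) were heterozygous for a transgene of human MAPT with the P301S mutation, driven by the mouse prion promoter Prnp, on a (C57BL/6xC3H)F1 background. The controls were 8 WT littermates. Both groups were about 9.6 months old, with equal numbers of males and females, and 1 library was made per mouse. Vesicles were precipitated from 200 µL of plasma, so they are total circulating pEVs of any tissue source, in which fewer vesicles of a kind and less RNA per vesicle cannot be told apart. All 8 PS19 library names begin with G, whereas 4 WT names begin with F, 2 with A and 2 with G (WT replicates 2 and 4). The letter is not labelled as a batch, and genotype and letter can be told apart only in part.

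A miRNA is cut from a hairpin precursor, whose arms give the 5p and 3p mature forms. One arm is usually loaded into Argonaute and finds target mRNAs by pairing of its seed, the bases near its 5′ end, so miRNAs with the same seed are grouped in a family with overlapping predicted targets. The family is encoded at several loci and is known for roles in vascular and adipose tissue and in TGF-β signaling.

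The mature sequences of the family are shown because its members share a seed and differ mainly beyond it, as given by RefSeq on GRCm38.p6. They are written 5′ to 3′, and capitals mark the seed, bases 2 to 8.
mmu-miR-130a-3p: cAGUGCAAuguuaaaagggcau
mmu-miR-130b-3p: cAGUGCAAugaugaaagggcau
mmu-miR-301a-3p: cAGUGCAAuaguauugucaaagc
miR-130a-3p (chr2:84741116-84741137, minus strand) and miR-130b-3p (chr16:17124071-17124092, minus strand) were identical at 20 of 22 positions. Counted from the 5′ end, with the base of miR-130a-3p first, the substitutions were U11A and A13G. miR-301a-3p (chr11:87113054-87113076, plus strand) matched miR-130a-3p at 12 and miR-130b-3p at 11 of 22 positions, and in both cases the first difference was at position 10. How the counting tool divided reads between sequences this alike is not given in the sources used here, so the split between miR-130a-3p and miR-130b-3p is uncertain. Another 4 miRNAs of the RefSeq sequences carry this seed, miR-130c, miR-6341, miR-6389 and miR-721, and they were not analysed here.

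The hairpin of miR-130b is shown because both of its arms were measured, and capitals mark the 5p arm and then the 3p arm.
Mir130b: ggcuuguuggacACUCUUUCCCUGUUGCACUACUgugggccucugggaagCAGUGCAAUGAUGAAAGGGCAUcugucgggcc
In GENCODE on GRCm38, Mir130b (chr16:17124061-17124142, minus strand) lies in an intron of 2610318N02Rik on the same strand. It is separated by 257 bases from the hairpin of Mir301b. Mir130a (chr2:84741115-84741178, minus strand) lies outside annotated genes, 991 bases from Gm19426. The hairpin of miR-301a (chr11:87113004-87113089, plus strand) lies in an intron of Ska2.

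Both members analysed were rare in these libraries. miR-130a-3p had 112 reads over the 16 libraries and ranked 358 of 1247 miRNA entries, and miR-130b-3p had 81 reads and ranked 409. For comparison, the most abundant miRNA entry, miR-148a-3p, had 3265443 reads. Total ncRNA reads per library ranged from 66767724 to 107372555 in PS19 and from 36220722 to 117583663 in WT. The reads of miRNA entries ranged from 52562 to 1246139 in PS19 (median 531487) and from 339731 to 2720314 in WT (median 723394), with PS19 replicates 1, 3 and 4 below every WT library at 71308, 166148 and 52562. Values below are normalized counts, reads divided by the library's size factor, unless reads are named. On this scale 1 read was worth between 0.389 and 3.83, so the members rest on few reads, and the intervals and detection limits given cover counting error only.

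miR-130b-3p was read in all 8 WT libraries and in 2 of 8 PS19 libraries. WT replicates 1 to 8 had 2, 12, 16, 4, 20, 9, 6 and 2 reads, and PS19 replicates 1 to 8 had 0, 2, 0, 0, 0, 8, 0 and 0 reads. As normalized counts the WT libraries had 2.54, 4.94, 15.6, 6.18, 7.77, 5.21, 6.08 and 2.84. In PS19, replicate 2 had 1.43, replicate 6 had 7.35 and the other 6 libraries had 0. The groups overlapped through PS19 replicate 6, which lay above 6 of the 8 WT libraries, while the other 7 PS19 libraries lay below every WT library. The PS19 mean was 1.10 ± 2.58 (SD, n = 8, median 0) and the WT mean was 6.40 ± 4.11 (SD, n = 8, median 5.65). The fitted difference, PS19 minus WT on the log2(normalized count + 1) scale, was -2.19 (SE 0.56) with limma.

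miR-130a-3p, the closest relative in sequence, was read in 6 of 8 libraries of each genotype. PS19 replicates 1 to 8 had 2, 21, 6, 0, 5, 5, 0 and 7 reads, and WT replicates 1 to 8 had 5, 0, 10, 5, 30, 8, 8 and 0 reads. As normalized counts the PS19 libraries had 2.94, 15.0, 8.23, 0, 4.13, 4.60, 0 and 5.09, and the WT libraries had 6.34, 0, 9.76, 7.72, 11.7, 4.64, 8.11 and 0. The groups overlapped over almost their whole range, with the highest value in PS19 replicate 2 and libraries at 0 in both. The PS19 mean was 5.0 ± 4.87 (SD, n = 8, median 4.36) and the WT mean was 6.03 ± 4.27 (SD, n = 8, median 7.03). The fitted difference was -0.27 (SE 0.68) on the same log2 scale, and its sign changed to 0.19 when libraries were scaled to their miRNA reads and to 0.52 among the libraries whose names begin with G. Over the alternatives tried, the difference of miR-130b-3p was negative, from -1.86 without PS19 replicates 1, 3 and 4 to -4.54 with a pseudocount of 0.1, so its size depends on the pseudocount.

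**Figure D1:**
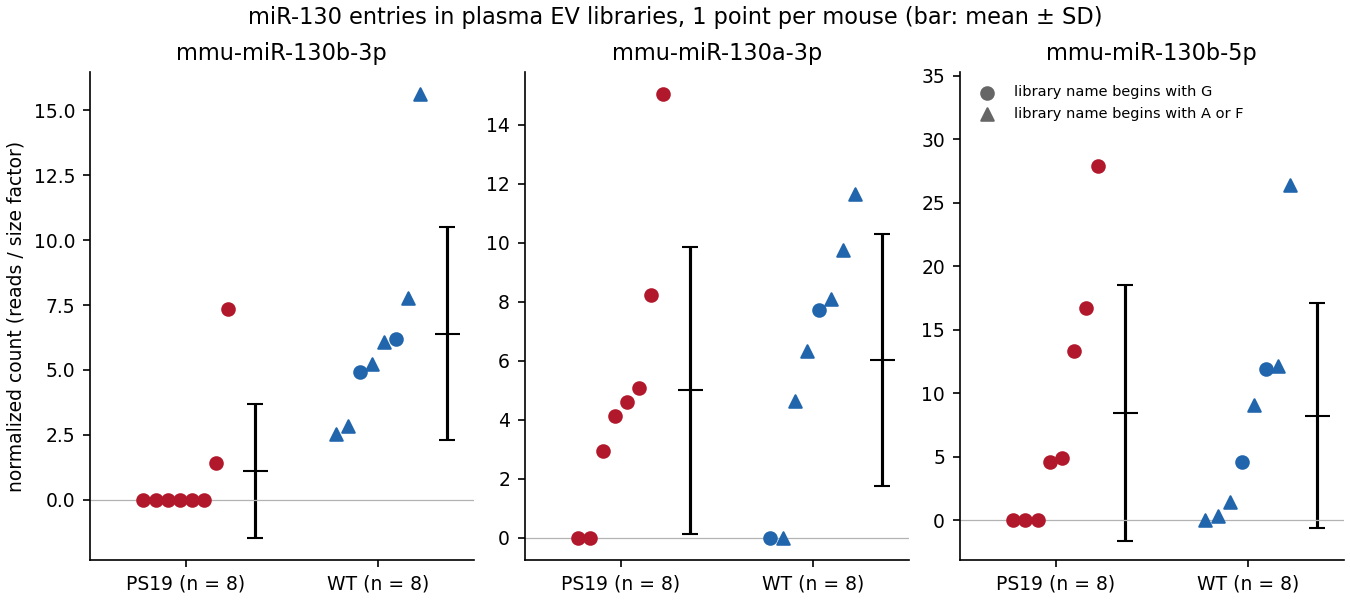
Normalized counts (reads divided by the size factor, linear axes) of miR-130b-3p, miR-130a-3p and miR-130b-5p, 1 point per mouse sorted by value within each group, with circles for library names that begin with G, triangles for A or F, and bars for the mean ± SD (n = 8). For miR-130b-3p 6 PS19 mice sit at 0 and 1 lies within the WT range at 7.35, while for miR-130a-3p and miR-130b-5p the groups overlap.

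As background to the members' differences, a raw p under 0.05 with limma was reached by 4.85% of all ncRNAs (735 of 15159) and by 5.93% of miRNA entries (74 of 1247, 11 higher and 63 lower in PS19). The members are not counted against it, since this contrast chose them. After Benjamini-Hochberg adjustment limma left 0 ncRNAs under 0.05 (smallest adjusted p = 0.829), DESeq2 left 47 and edgeR 318. The median difference was -0.01 over all ncRNAs and -0.20 over miRNA entries on the log2 scale. With scaling to miRNA reads these medians were 0.29 and -0.01.

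A 0 in a library with few miRNA reads allows more miR-130b-3p than a 0 in a deep library. Over the pooled WT libraries miR-130b-3p made up 8.43 RPM (reads scaled to 1000000 miRNA reads of the library), and over the pooled PS19 libraries 2.27 RPM. PS19 replicate 6 held 8 of the 10 PS19 reads, and without it the pooled PS19 rate was 0.528 RPM. Without PS19 replicate 8 instead it was 2.92 RPM, and with 1 WT library left out the pooled WT rate ranged from 6.98 to 10.3 RPM. At the pooled WT rate, PS19 replicates 1, 3 and 4 would hold 0.601, 1.40 and 0.443 reads, so their 0 was below what this depth can detect. Their detection limits, 3 reads in the library, were 42.1, 18.1 and 57.1 RPM. PS19 replicates 5, 7 and 8, also at 0, would hold 6.94, 3.66 and 8.34 reads, and their limits of 3.64, 6.90 and 3.03 RPM lie below the pooled WT rate. PS19 replicate 6 had 12.7 and replicate 2 had 1.605 RPM, and the WT libraries ranged from 2.01 to 29.5. With 2 reads each, PS19 replicate 2 and WT replicates 1 (2.01) and 8 (5.89) lay below their own 3-read limits of 2.41, 3.02 and 8.83 RPM, so their levels are not distinguished from 0 by this limit. The pooled rate would give 37.2 miR-130b-3p reads over the 8 PS19 libraries, of which 34.7 in the 5 without replicates 1, 3 and 4, where 10 were read.

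For miR-130a-3p the pooled rates were 10.4 RPM in PS19 and 7.83 in WT. The pooled WT rate would give 34.6 reads in PS19, where 46 were read. Without WT replicate 2, which had 0 reads of it and the most miRNA reads, the pooled WT rate was 11.6 RPM. Which genotype had the higher rate therefore depends on that library. PS19 replicates 1 and 3, which had 0 reads of miR-130b-3p, had 2 and 6 reads of miR-130a-3p.

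**Figure D2:**
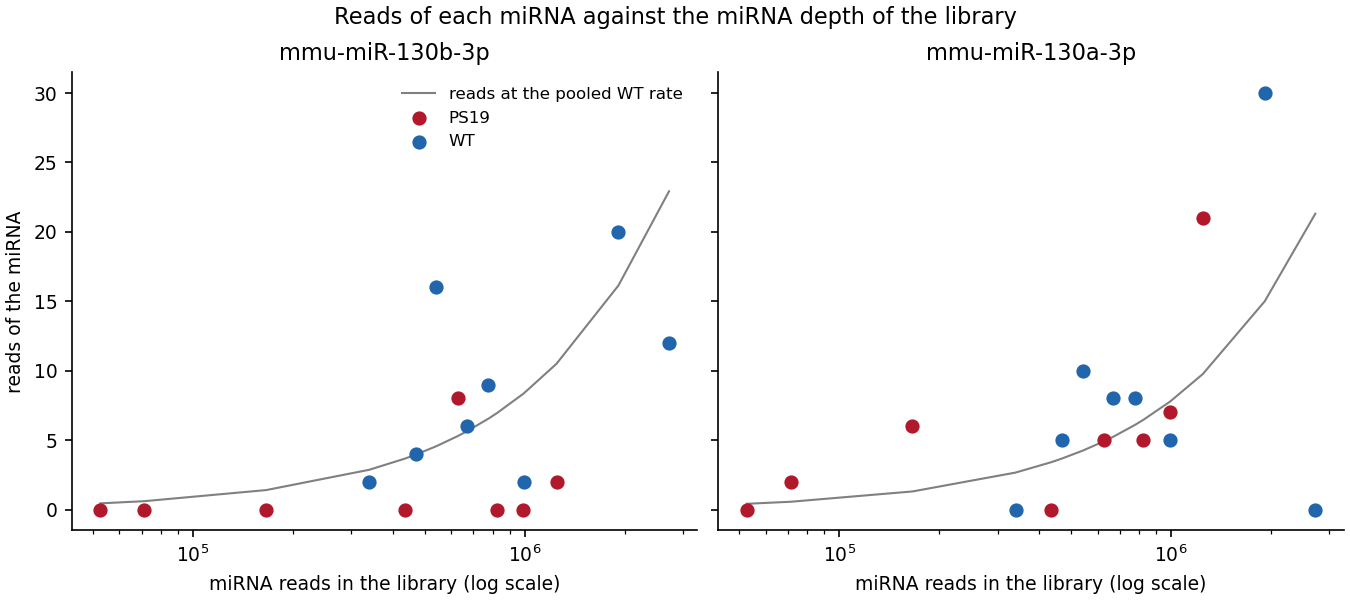
Reads of miR-130b-3p (left) and miR-130a-3p (right) against the miRNA reads of each library (log axis), 1 point per library, with a line at the reads that the pooled WT rate would give. For miR-130b-3p 3 PS19 libraries with 0 reads lie at low depth, where the line is at 1.40 or below, and another 3 lie at depths where it is at 3.66 or above.

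The letter of the library name was compared within WT. WT replicates 2 and 4, which share the letter of the PS19 names, had miR-130b-3p at 4.94 and 6.18 (mean 5.56), and the 6 other WT libraries had a mean of 6.68. All 8 PS19 libraries against these 2 gave a difference of -2.16 (SE 0.96) on the log2 scale, beside -2.19 (SE 0.56) over all libraries. The first value rests on 2 WT libraries, and the part of the letter was not tested. Scaled to miRNA reads instead, the pooled rate was 5.02 RPM in the 2 WT libraries with the letter of the PS19 names and 10.5 RPM in the 6 others. The first of these rates rests on WT replicate 2, the library with the most miRNA reads, at 4.41 RPM, and WT replicate 4 alone had 8.54 RPM. Both lay within the range of the 6 other WT libraries, 2.01 to 29.5 RPM. For miR-130a-3p the same 2 WT libraries had 0 and 7.72.

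The balance between the members was taken within each library, where depth and size factor cancel. miR-130b-3p made up between 28.6% and 100% of the reads of both members in WT libraries (median 48.7%, mean 58.8% ± 27.2, SD, n = 8), and both libraries at 100%, replicates 2 and 8, had 0 reads of miR-130a-3p. In PS19, 6 libraries had a read of either member. The share was 0% in replicates 1, 3, 5 and 8, from 2, 6, 5 and 7 reads. It was 8.70% in replicate 2 (2 of 23 reads, 95% Wilson interval 2.42 to 26.8%) and 61.5% in replicate 6 (8 of 13 reads, 35.5 to 82.3%). The point values of 5 of these 6 PS19 libraries lay below every WT library and replicate 6 lay within the WT range. The upper limits of the 4 libraries at 0% were 65.8, 39.0, 43.4 and 35.4%, above the lowest WT share of 28.6%, so these are not resolved from the lowest WT libraries. Pooled over libraries the share was 17.9% in PS19 (10 of 56 reads, 9.9999 to 29.8%) and 51.8% in WT (71 of 137 reads, 43.5 to 60.0%). Without PS19 replicate 6 the pooled PS19 share was 4.65% (2 of 43 reads), and without PS19 replicate 2 it was 24.2% (8 of 33 reads). With 1 WT library left out the pooled WT share ranged from 47.2 to 58.6%. The share contains the values that chose the family, so its PS19 and WT difference of -47.1 percentage points between library means was not tested.

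The order of the members within WT libraries is given as a description, since the WT level of miR-130b-3p was among the values that chose the family. In WT, miR-130a-3p minus miR-130b-3p on the log2 scale had a mean of -0.38 ± 1.27 (SD, n = 8), with 4 libraries above 0 and 4 below. In PS19 the same difference was 1.54 ± 1.48 (SD, n = 8), with 5 libraries above 0, 1 below and 2 with neither member.

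The 5p arm of the same hairpin, miR-130b-5p, comes from the same precursor but carries another seed, as its sequence shows with bases 2 to 8 in capitals.
mmu-miR-130b-5p: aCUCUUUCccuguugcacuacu
mmu-miR-301a-5p: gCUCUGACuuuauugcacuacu
miR-130b-5p was not used to choose the family, and it had 180 reads in total, more than either member. In PS19, replicates 2, 5, 6, 7 and 8 had 39, 6, 5, 16 and 23 reads and the other 3 had 0. In WT, replicates 1 to 8 had 0, 29, 27, 3, 1, 21, 9 and 1 reads. As normalized counts PS19 ranged from 0 to 27.9 (mean 8.44 ± 10.1, SD, 8 mice) and WT from 0 to 26.4 (mean 8.25 ± 8.84, SD, n = 8), so the groups overlapped over their whole range. The difference was -0.23 (SE 0.80) on the log2 scale, with a raw p of 0.774 and an adjusted p of 0.938 with limma. Scaled to miRNA reads, the pooled rate was 20.2 RPM in PS19 and 10.8 RPM in WT, and the pooled WT rate would give 47.7 reads in PS19, where 89 were read. The fitted difference was -0.18 (SE 0.84) with that scaling. On size-factor values it was 1.11 (SE 0.74) without PS19 replicates 1, 3 and 4. DESeq2 on all libraries gave 0.07 (SE 0.95), and the libraries of the PS19 letter gave -0.86 (SE 1.23) with limma. The direction of this difference therefore depends on the libraries and on the measure. The PS19 libraries at 0 for miR-130b-5p, replicates 1, 3 and 4, were those with the fewest miRNA reads. miR-301a-5p, the other arm of the miR-301a hairpin, had 9 reads in total, 6 in PS19 replicate 5 and 1 in each of WT replicates 3, 6 and 7, and its difference was -0.01 (SE 0.33, adjusted p = 0.993 with limma).

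The 3p arm made up 43.8% of the reads of both Mir130b arms over the pooled WT libraries (71 of 162 reads, 95% Wilson interval 36.4 to 51.5%) and 10.1% over the pooled PS19 libraries (10 of 99 reads, 5.58 to 17.6%). Without PS19 replicate 6 the pooled PS19 value was 2.33% (2 of 86 reads), and without PS19 replicate 2 it was 13.8% (8 of 58 reads). With 1 WT library left out the pooled WT value ranged from 36.2 to 48.8%. Across WT libraries the 3p share ranged from 29.3 to 100% (median 48.6%, mean 56.9% ± 28.2, SD, n = 8). By the pooled rates, PS19 had a lower 3p rate (2.27 against 8.43 RPM in WT) and a higher 5p rate (20.2 against 10.8 RPM), and both enter this share. In PS19 it was 4.88% in replicate 2 (2 of 41 reads) and 61.5% in replicate 6 (8 of 13 reads). PS19 replicates 7 and 8 had 5p reads only, 16 and 23, so that their 0% allows up to 19.4% and 14.3% by the Wilson interval, and replicate 5 had 6 reads, all 5p. PS19 replicates 5, 7 and 8 therefore held reads of the hairpin's other arm without a read of miR-130b-3p. The mean level of 3p minus 5p was -0.72 ± 1.96 (SD, n = 16) on the log2 scale over all libraries. In WT alone it was 0.26 ± 1.40 (SD, n = 8), with 4 libraries above 0 and 4 below, and in PS19 it was -1.69 ± 2.03 (SD, n = 8), with 1 above, 4 below and 3 with neither arm. These means hold the 3p values that chose the family and were not tested.

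**Figure D3:**
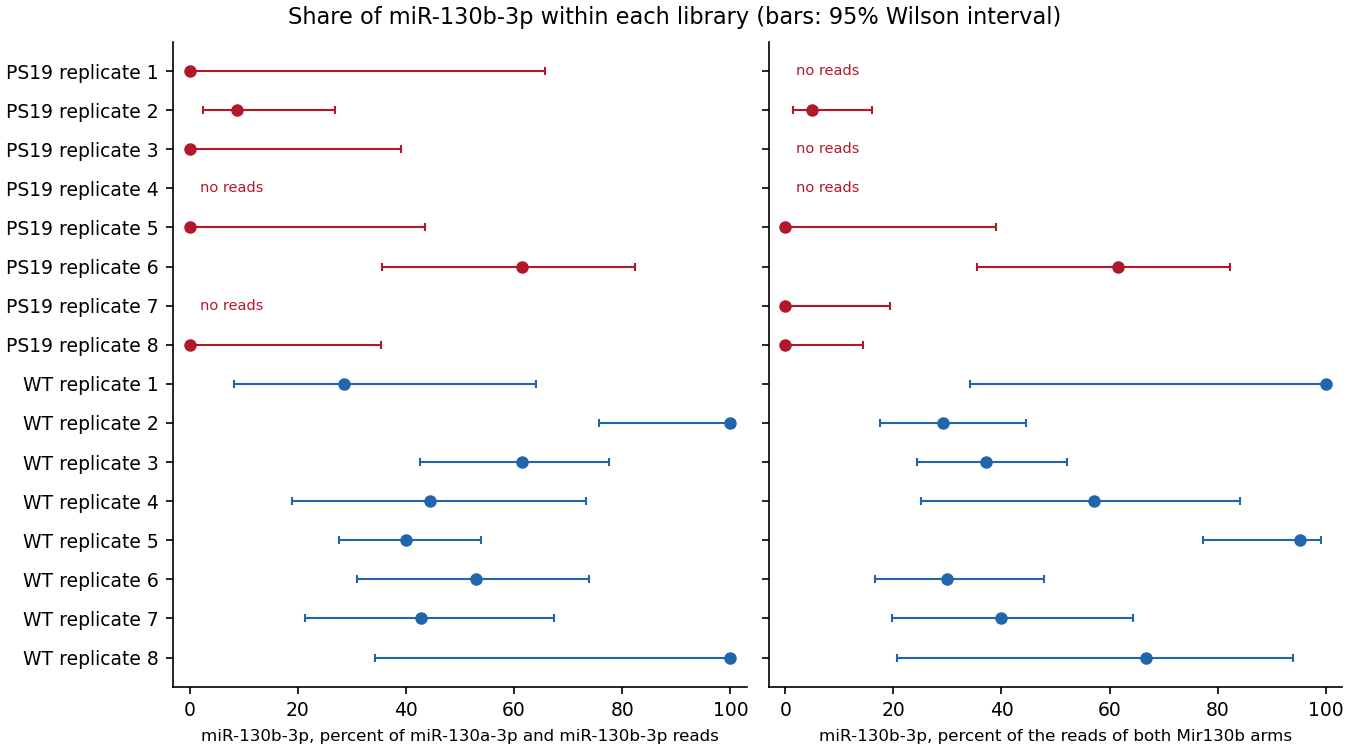
Share of miR-130b-3p among the reads of both members analysed (left) and among the reads of both arms of Mir130b (right), in percent, 1 row per library, with 95% Wilson intervals. PS19 replicate 6 lies at 61.5% in both panels, the other PS19 libraries with reads lie at 8.70% or below on the left and 4.88% or below on the right, and WT libraries lie at 28.6% or above.

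miRNAs whose sequence holds 6 bases of the family's seed in another register were taken as the nearest seed relatives. Their sequences are shown because the shift of the shared bases sets them apart from the family, with bases 2 to 8 in capitals.
mmu-miR-148a-3p: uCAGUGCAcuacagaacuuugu
mmu-miR-148b-3p: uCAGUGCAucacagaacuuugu
mmu-miR-152-3p: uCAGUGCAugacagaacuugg
mmu-miR-19a-3p: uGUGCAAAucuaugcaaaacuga
mmu-miR-19b-3p: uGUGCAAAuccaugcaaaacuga
Of these and the 2 5p arms above, with miR-350-5p (1 read) 8 entries in all, 0 had a raw p under 0.05 with limma, and 0 did so with DESeq2 or edgeR. Beside this stand 74 of 1247 miRNA entries (5.93%) with limma, 38 with DESeq2 and 245 with edgeR. A 0 among so few is near the limma and DESeq2 shares and says little about these 8 entries. With limma and Benjamini-Hochberg adjustment over all ncRNAs, adjusted p-values ranged from 0.829 to 0.993, and the median difference was -0.15 on the log2 scale, beside -0.20 over all miRNA entries. Normalized counts of miR-148a-3p averaged 124110 ± 95669 in the PS19 mice and 175840 ± 107461 in the WT mice (SD, n = 8 each). Its difference was -0.74 on the log2 scale (SE 0.56). For miR-148b-3p the means were 209 ± 114 and 290 ± 119 (SD, n = 8 each). Its difference was -0.62 (SE 0.48). For miR-152-3p the means were 214 ± 85.9 and 282 ± 73.5 (SD, n = 8 each). Its difference was -0.47 (SE 0.41). The genotypes overlapped for all 3, and each had an adjusted p of 0.829 with limma. With scaling to miRNA reads these differences took the opposite sign, 0.14, 0.26 and 0.41. miR-19a-3p and miR-19b-3p, which derive from the miR-17-92 and related clusters, had 64 and 33 reads in all and differences of -0.06 (SE 0.70) and 0.55 (SE 0.61).

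**Figure D4:**
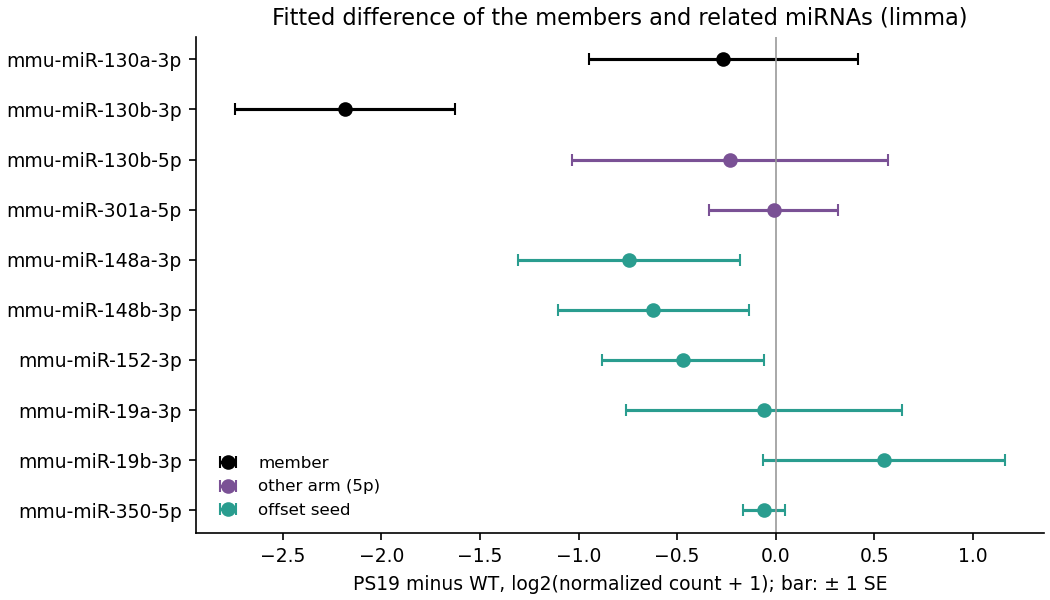
Fitted difference, PS19 minus WT on the log2(normalized count + 1) scale, of the members and the related miRNAs, with bars of 1 SE from limma over 8 PS19 and 8 WT mice. miR-130b-3p lies at -2.19 and was selected on this contrast, and the other entries lie between -0.74 and 0.55.

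The members were also compared across mice after each genotype's mean was removed. Over the 16 libraries the log2 values of miR-130a-3p and miR-130b-3p had Pearson's r = 0.40 and Spearman's rho = 0.51, given as a description of 1 pair of members with no test. Without WT replicates 2 and 8, the 2 libraries farthest from the median of miR-130a-3p, r was 0.36. The median r over 42486 pairs of 292 miRNA entries was 0.35, near the members' r.

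By their pattern over all 16 libraries, the mature miRNAs most like miR-130a-3p among 225 compared were miR-15b-5p (r = 0.71, rho = 0.63), miR-20a-5p (r = 0.67, rho = 0.56) and miR-16-5p (r = 0.64, rho = 0.57), where the median r was 0.27. Those most like miR-130b-3p were miR-98-5p (r = 0.66, rho = 0.75), miR-335-3p (r = 0.65, rho = 0.54) and miR-200b-5p (r = 0.63, rho = 0.64), where the median r was 0.37. These coefficients are across libraries that share depth and genotype and were not tested. miR-98-5p, of the let-7 family, averaged 113 ± 48.6 in the PS19 and 182 ± 78.0 in the WT mice (SD, 8 per group). miR-335-3p had 7.76 ± 7.56 and 27.3 ± 11.5, and miR-200b-5p had 8.83 ± 10.8 and 16.2 ± 11.1 (SD, n = 8 each). The 2 lists of 3 have no miRNA in common.

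Circulating vesicles come from many tissues, so miRNAs known to be abundant in a few sources were summed beside the members. The red cell miRNAs (miR-451a, miR-486a-5p and miR-144-3p) summed to 1937 to 44727 in PS19 (median 32918) and 17232 to 94695 in WT (median 38259), with 1 of 3, miR-486a-5p, below WT in the PS19 mice with a raw limma p under 0.05. The list of platelet and myeloid miRNAs (miR-223-3p, miR-126a-3p and miR-142a-3p) summed to 548 to 2265 (median 1421) and 1436 to 3342 (median 1919), with 0 of 3. Most of that sum was miR-126a-3p, which is also abundant in endothelial cells (mean 1293 in PS19, 2042 in WT), whereas miR-223-3p had a mean of 56.2 in PS19 and 31.1 in WT and miR-142a-3p of 19.5 and 21.6. The liver miRNAs (miR-122-5p and miR-192-5p) summed to 8373 to 211497 (median 27482) and 26450 to 385899 (median 105645). By the same raw limma cut 1 of 2 was counted, miR-122-5p, lower in PS19. The neuronal miRNAs (miR-124-3p and miR-9-5p) summed to 159 to 2604 (median 189.5) and 149 to 2565 (median 439.7), with 0 of 2. The median sum of each of these 4 lists was lower in PS19, each sum being mostly its most abundant miRNA, while miR-223-3p had the higher mean in PS19. None of these miRNAs was at 0 over a whole group. Beside the counts for these lists stand 74 of 1247 miRNA entries (5.93%) under the same raw limma cut, 63 of them lower in PS19. miR-486a-5p and miR-122-5p each had an adjusted p of 0.829 with limma, so neither passed after adjustment. The sums are on size-factor values, and sums scaled to miRNA reads are not given here. The part of these sources, of depth and of the library letter in the values of miR-130b-3p was not tested.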

How the data were processed

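The authors aligned the small RNA reads with STAR 2.5.3a and assigned them to ncRNAs with COMPSRA. Submitters' processing notes list DESeq2 1.42.1 and mm10. In the deposited signal values, the authors had scaled the counts by a DESeq2 size factor per library, 16 in all. The authors' comparison columns (mean, log2 fold change, SE, Wald statistic, p and adjusted p) were not used. Dividing by the value of 1 read gave whole reads for 100% of values, within 1e-06.

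log2(normalized count + 1) was fitted over all 15159 ncRNAs with limma 3.58.1 (eBayes with a trend, R 4.3.3) for PS19 against WT, with Benjamini-Hochberg adjustment, and tested on simulated data. limma was used because the values are normalized. Alternatives were DESeq2 1.42.0 and edgeR 4.0.16 on whole reads, scaling to library or miRNA totals, a pseudocount of 0.1, a mean of at least 1 or 10, 1 entry per identical set, a replicate block, the libraries of the PS19 letter, and each library left out. Leaving out PS19 replicates 1, 3 and 4, the arm comparison in WT alone, and leaving each library out of the pooled values, were chosen after seeing the data. Share intervals are 95% Wilson intervals and detection limits are 3 reads. Correlations and intervals were computed with scipy 1.17.1.

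Each library is a separate mouse, and p-values measure the spread between mice. Same replicate numbers mark different mice and the labels give no pairing, so none was used. Correlations between same-numbered libraries were -0.16 to 0.52. Members, lists and tests were chosen with earlier results of these data known. Entries named are the members, the 5p arms, the seed relatives with a read, the source miRNAs, and per member the 3 mature miRNAs with the highest Pearson r among those with a mean of at least 10.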

Additional observations from a re-analysis of the deposited data

Results flagged for a closer look

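In groups of 8 libraries, the gap between the highest or lowest value and its neighbour was compared with the group's range on the log2(normalized count + 1) scale, which chance alone puts past the limit in about 1 in 20 groups of continuous values. That rate does not hold for groups mostly at 0, where a single library with reads passes by construction. Of 19 groups examined, 3 passed it. For miR-130b-3p in PS19, replicate 6 stood apart at a normalized count of 7.35 (8 reads), with a gap of 0.582 of the range on the log2 scale beside a limit of 0.526. The other libraries of that group were at 0 in 6 cases, and these values were among those that chose the family. For miR-301a-5p in PS19, replicate 5 held all reads, at 4.95 (6 reads), and for miR-350-5p in WT, replicate 5 held the 1 read, at 0.389.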

How the results depend on the processing

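The number of ncRNAs with a raw p under 0.05 was 735 with limma. It was 441 with library totals (145 higher, 296 lower in PS19), 1131 with miRNA totals (1031 higher, 100 lower), 230 at a mean of at least 10 (171 higher, 59 lower) and 2295 with edgeR (1195 higher, 1100 lower), beside 412 higher and 323 lower in the limma fit. The mean filter left 2625 ncRNAs, and 230 of these is a larger share than the 4.85% (735 of 15159) of the limma fit. The causes of these shifts were not tested. The 7 other alternatives gave 609 to 822, with 581 higher and 241 lower by DESeq2 and 139 higher and 505 lower in the libraries of the PS19 letter, and leaving out 1 library gave 567 to 846. The replicate block gave 685, and 1 of 8 PS19 libraries correlated best with the WT library of its own number. The labels give no pairing of mice, and such a check cannot show whether one exists. Of the 8 entries related by seed or hairpin, 0 had a raw p under 0.05 in every alternative run. The filter at a mean of at least 10 kept only miR-148a-3p, miR-148b-3p and miR-152-3p of them. Beside this stand 5.93% of miRNA entries with limma, so 0 of 8 says little about these entries.

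miR-130b-3p differed by -4.54 on the log2 scale with a pseudocount of 0.1, by -2.48 to -1.86 in 9 other alternatives and by -2.55 to -1.996 with 1 library left out. miR-130a-3p ranged from -0.41 to 0.52, and from -0.60 to 0.03 with 1 library left out. A mean of at least 10 keeps neither member. The 3p minus 5p level of Mir130b reversed from -0.72 to 0.26 in WT alone, which leaves out the PS19 values, and ranged from -0.94 to -0.49 with 1 library left out. The correlation of the members ranged from 0.32 to 0.54 over all alternatives, and miR-130a-3p minus miR-130b-3p in WT from -1.10 to -0.07. With 1 read worth up to 3.83, a single read can move a library across the lower range of either member.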

Other observations

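A read in all 8 WT libraries with a read in at most 2 of 8 PS19 libraries was seen for 2 of 1247 miRNA entries (0.160%), miR-130b-3p and miR-141-3p. This pattern was defined from the values of miR-130b-3p, which chose the family, and it was not tested. PS19 replicates 1, 3 and 4 had 52562 to 166148 miRNA reads and the WT libraries at least 339731. PS19 replicates 5, 7 and 8, also at 0 for miR-130b-3p, had 823708, 434630 and 990334. A 0 at lower depth allows more of a rare miRNA, and the part of depth in this pattern was not tested. miR-141-3p, of the miR-200 family, had 8 reads in PS19 replicate 2, 5 in PS19 replicate 8 and 0 in the other 6 PS19 libraries. WT replicates 1 to 8 had 2, 3, 6, 3, 17, 1, 1 and 2 reads of it. Its normalized counts averaged 1.17 ± 2.24 in the PS19 and 3.16 ± 2.29 in the WT mice (SD, 8 per group). The PS19 library highest for miR-130b-3p, replicate 6, had 0 reads of miR-141-3p, so PS19 replicate 2 was the one PS19 library with reads of both.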
